A study of Mus musculus with 9 samples.

Results

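Aminoacyl-tRNA synthetases attach each amino acid to its transfer RNA. The account below covers the genes of 34 of these enzymes in mouse macrophages, chosen by name: 19 that act in the cytosol and 15 nuclear genes, written with a final 2 in their symbol, whose products act in mitochondria. They are 34 of the 46095 gene symbols in the count table. All 34 passed the filter on low counts and were among the 14026 genes tested. The rule that chose them names genes and uses no measured value, but it was written with earlier results of these data known. Messenger RNA had been sequenced from bone marrow-derived macrophages (BMDMs, macrophages grown from marrow precursors) of wild-type Balb/c mice, at an age of 6 weeks, in 3 groups of 3 libraries each. The groups were LPS+BHB, LPS alone, and control (Con); every group shared the strain, genotype and age. The labels spell out neither abbreviation; LPS usually stands for lipopolysaccharide, the bacterial outer membrane glycolipid sensed by macrophages, and BHB for beta-hydroxybutyrate, which the liver releases as a ketone body. The labels give no dose or duration and no group with BHB alone, and they do not tell whether the replicates of a group are separate cultures or mice. All p-values below therefore measure the spread among these 9 libraries, which may be technical.

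Cells run separate sets of these enzymes for the cytosolic and the mitochondrial ribosome, each set encoded in the nucleus, while Gars and Kars each supply the enzyme of both compartments. Several cytosolic members assemble into the multisynthetase complex, and others work outside it. In mammals the transcription factor ATF4, which is made when the kinases of the initiation factor eIF2 are active and amino acids or the secretory pathway are under strain, is known to raise many cytosolic synthetase genes together with genes of amino acid synthesis and import, through a composite C/EBP-ATF response element.

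The sequences below are shown because of the LPS response of the cytosolic genes with a promoter window. Those with the largest response share the core of the C/EBP-ATF element near their start sites, a grouping made with the values known. The core searched was TGATGNAA on both strands of the 300 bases from 250 before to 50 after each start, taken from RefSeq (GRCm38.p6). A window was found for 26 of the 34 members, 13 cytosolic and 13 mitochondrial. Cars, Hars, Lars, Nars, Rars, Wars, Hars2 and Pars2 had none. Each line gives 24 bases on the strand that reads TGATGNAA, 5′ to 3′, with the match in capitals:
Aars, chr8:111033722-111033745, reverse strand: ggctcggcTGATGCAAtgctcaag
Aars, chr8:111033843-111033866, reverse strand: gagcgctcTGATGAAAagtgaccc
Gars, chr6:55037963-55037986, reverse strand: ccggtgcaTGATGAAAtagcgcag
Iars, chr13:49682129-49682152, reverse strand: tctggaggTGATGCAAtactgaca
Tars, chr15:11399658-11399681, forward strand: taaccagcTGATGCAAcgggactc
Yars, chr4:129189898-129189921, forward strand: agctcagcTGATGCAAcccgacgg
The gene lies on the forward strand for Aars, Gars, Iars and Yars and on the reverse strand for Tars, so the core runs with the gene in Yars and against it in the others. Counted from the start as position 1, the matches begin at -112 and 10 in Aars, -30 in Gars, 8 in Iars, -15 in Tars and 4 in Yars. The 2 windows below give the 250 bases before the start of Gars and of Tars, read along the gene, to show the match (here as its reverse complement, in capitals) beside the start site.
Gars, chr6:55037751-55038000, forward strand: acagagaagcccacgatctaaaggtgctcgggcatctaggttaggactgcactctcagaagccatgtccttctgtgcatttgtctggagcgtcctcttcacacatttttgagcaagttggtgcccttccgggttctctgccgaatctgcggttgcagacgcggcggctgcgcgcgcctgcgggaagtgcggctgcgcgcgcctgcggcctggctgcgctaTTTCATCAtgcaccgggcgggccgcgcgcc
Tars, chr15:11399659-11399908, reverse strand: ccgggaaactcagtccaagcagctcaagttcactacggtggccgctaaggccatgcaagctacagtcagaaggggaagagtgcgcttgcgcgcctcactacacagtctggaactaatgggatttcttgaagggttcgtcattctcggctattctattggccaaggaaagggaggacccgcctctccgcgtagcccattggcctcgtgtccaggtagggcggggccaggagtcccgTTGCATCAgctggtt

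The core was found in 5 of the 13 cytosolic windows, and in 0 of the 13 mitochondrial members' windows. Among tested genes with a window, 2.91% of 10103 held it, as did 3.97% of all 32851 windows. At so low a share, its absence from 13 mitochondrial members does not set them apart from other genes. In the 250 bases before the start alone it was in 3 of 13 cytosolic members, with Iars and Yars left out, against 2.55% of tested genes. An E-box (CACGTG) was in Aars, Farsb, Iars and Tars and in the mitochondrial Ears2, against 11.8% of tested genes. The core of the NRF1 element was in Farsb, Kars and Tars and in Iars2 and Mars2, against 11.6% of tested genes. In the 250 bases before the start alone, 0 mitochondrial members held either, against 9.99% of tested genes for the E-box and 9.38% for the NRF1 core. In these windows no match overlapped a match of another motif. A match describes the letters of a window and is not evidence of binding, and no match says only that these letters were not in that window.

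Libraries held 29633411 to 32798920 counts, and replicates of a group differed by more than sampling noise (chi-square per degree of freedom 3.16 to 11.2). In every group the comparisons with replicate 3 gave the highest values. They were 11.2 and 10.8 in LPS+BHB, beside 6.25 between replicates 1 and 2. In LPS they were 6.03 and 5.82, beside 3.16, and in Con 7.33 and 7.8, beside 4.45. Macrophage markers were abundant in every library, with a summed level of 15600 to 16200 CPM (a gene's counts per 1000000 counts of the scaled library total) in LPS+BHB, 9880 to 11300 in LPS and 19700 to 23100 in Con. Of these 10 markers 3 were higher and 7 lower in LPS than in Con, against 38.4% and 41.4% of all tested genes. In LPS+BHB against LPS 5 were higher and 3 lower, against 26.4% and 24.4%. With 10 genes these counts are not read as a result about the list. Summed neutrophil, stromal, lymphocyte, and erythroid and mast cell markers were each at most 10.1 CPM in any library, and dendritic cell markers 16.4 to 17.5 CPM in LPS+BHB, 20.1 to 24.6 in LPS and 2.68 to 3.37 in Con. The dendritic cell list held 5 genes, and Zbtb46 made up most of their sum in LPS+BHB and LPS. It averaged 13.6 CPM in LPS+BHB, 20.3 in LPS and 0.869 in Con. Ccr7 averaged 3.01, 2.32 and 0.781 in the same groups, and Cd209a went the other way, at 0.0113, 0.0346 and 1.23. Flt3 and Xcr1 averaged at most 0.137 and 0.174 CPM in any group. None of the listed markers was at 0 in all libraries, and the part of these shifts in the results below was not tested. In bulk RNA, fewer cells of a type and less RNA per cell cannot be told apart.

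Cytosolic synthetase RNA was far more abundant than mitochondrial synthetase RNA in every library. The 19 cytosolic genes summed to 3945, 3918 and 3390 CPM in LPS+BHB, 5304, 5341 and 5204 CPM in LPS, and 1021, 1065 and 1054 CPM in Con. The 15 mitochondrial genes summed to 157.9, 165.3 and 157.5 CPM in LPS+BHB, 187.0, 187.9 and 190.9 CPM in LPS, and 215.7, 221.7 and 226.0 CPM in Con. Neither class's sums overlapped between any 2 groups. The cytosolic sum was highest in LPS and lowest in Con, whereas the mitochondrial sum was highest in Con and lowest in LPS+BHB.

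**Figure D1:**
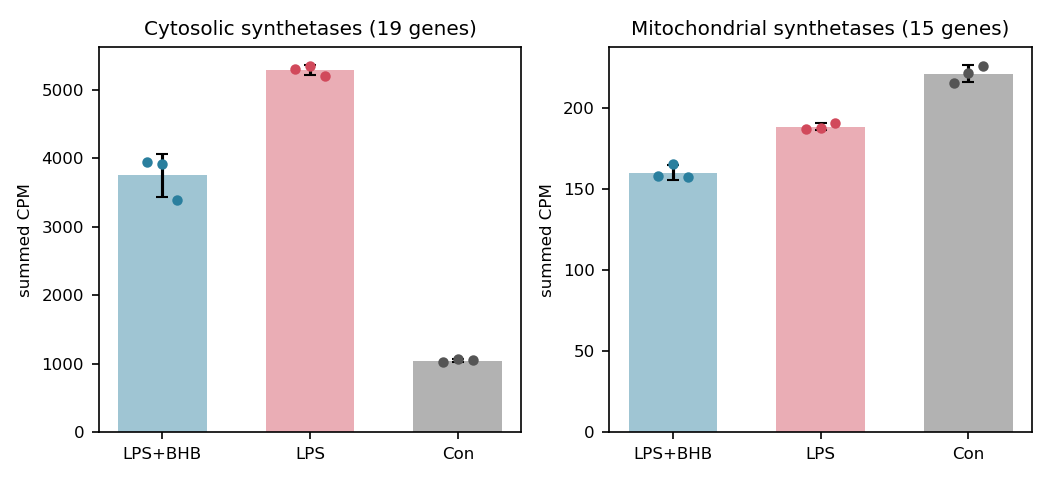
Summed CPM of the 19 cytosolic (left) and 15 mitochondrial (right) synthetase genes in LPS+BHB, LPS and Con. Bars are means, points are the 3 libraries and error bars are SD; cytosolic means are 3751, 5283 and 1047 CPM and mitochondrial means 160.2, 188.6 and 221.1 CPM.

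Per kilobase of annotated exon, levels can be set side by side between genes. In LPS+BHB the cytosolic genes ran from 5.57 CPM per kb for Yars to 125 for Nars, and the mitochondrial genes from 0.153 for Mars2 to 4.38 for Hars2 and Iars2. In LPS the cytosolic levels per kb ran from 7.99 for Yars to 181 for Nars, all above the highest mitochondrial level, 5.44 for Yars2. In Con, Nars was again highest with 34.4 CPM per kb, and Yars was lowest of the cytosolic genes with 0.740, below 13 of the 15 mitochondrial genes. Nars2 and Mars2 were the lowest mitochondrial genes per kb in every group. These levels rest on the exons of a standard annotation (GENCODE M21), and the sources used here do not name the annotation used for counting.

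**Figure D2:**
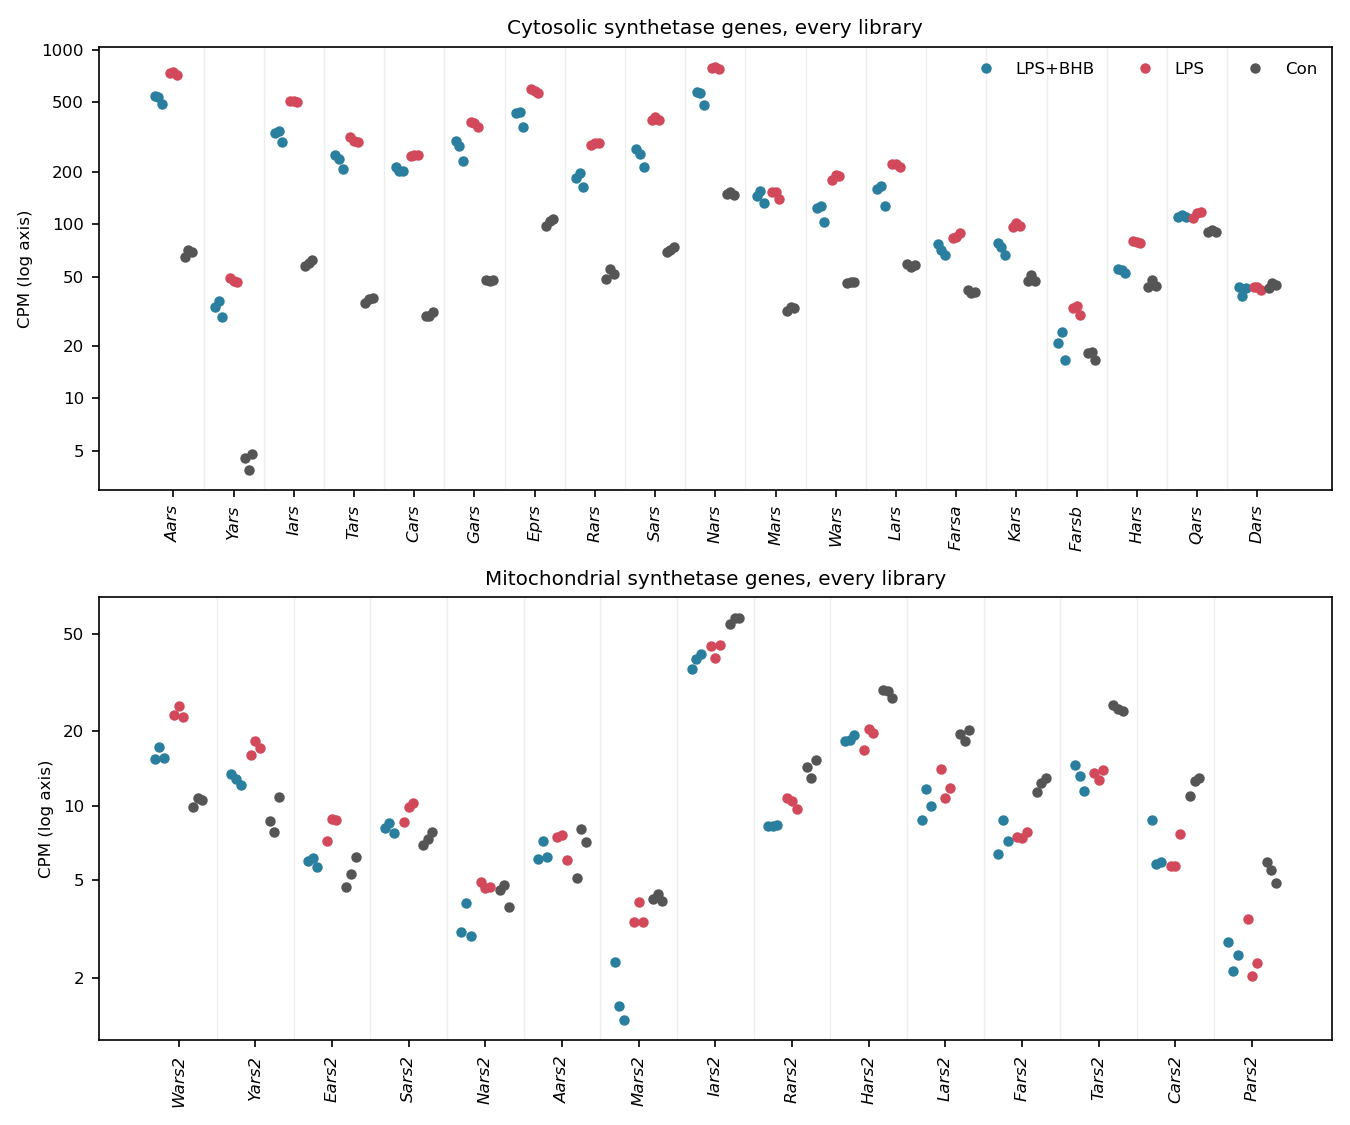
CPM (log axis) of every cytosolic (top) and mitochondrial (bottom) synthetase gene in each of the 9 libraries, ordered by the LPS against Con fold change. For most cytosolic genes the points order as LPS, then LPS+BHB, then Con; for mitochondrial genes toward the right, Con is highest.

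The comparison of LPS with Con asks what the stimulus did to the charging enzymes. Cytosolic synthetase genes rose together: 18 of 19 were called higher in LPS and 0 lower, against 38.4% of all tested genes called higher and 41.4% lower. Their median log2 fold change was 2.39, and that of all tested genes was -0.06. At least 2-fold rises were called for 15 of the 19, against 18.7% of all genes, and in 18 every LPS library was above every Con library, against 39.6%. Dars, which charges aspartate, was the gene not called, at -0.05 ± 0.06 (SE, as for every log2 change below) with an edgeR adjusted p of 0.494. Scaling by library totals alone moves the median of all genes by -0.27 and gives 17 cytosolic genes higher and 1 (Dars) lower, with Qars not called. Of all genes called, 37.7% are then higher, against 48.2% with the scaling used here.

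Aars, the alanine enzyme, had 741, 745 and 718 CPM in the LPS libraries, against 64.3, 70.7 and 68.8 CPM in Con. Yars, the tyrosine enzyme, had 49.0, 47.1 and 46.2 CPM in LPS and 4.53, 3.88 and 4.77 CPM in Con. Iars, the isoleucine enzyme of the multisynthetase complex, had 506, 509.8 and 499.9 CPM in LPS and 57.6, 60.0 and 62.5 CPM in Con. In all 3 genes every LPS library was far above every Con library. Aars was 10.8-fold higher in LPS (log2 3.43 ± 0.05, edgeR adjusted p 4.80e-22). Yars was 10.8-fold higher (log2 3.43 ± 0.10, adjusted p 4.67e-18). Iars was 8.41-fold higher (log2 3.07 ± 0.05, adjusted p 3.52e-21). Aars shares 14.3% of its exon bases with Exosc6 on the same strand, and 14.7% of the 31-base words of Iars also occur elsewhere, most of them in the pseudogene Gm4849, so reads of these genes could be split by the counting.

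Close behind came Tars (threonine, 316, 301 and 298 CPM in LPS and 35.5, 37.1 and 37.7 in Con), Cars (cysteine, 246, 251 and 250.4 in LPS and 29.5, 29.8 and 31.2 in Con) and Gars (glycine, 388, 380.4 and 362 in LPS and 47.6, 47.1 and 47.9 in Con). Their groups did not overlap, and their log2 fold changes were 3.05 ± 0.06, 3.05 ± 0.05 and 2.99 ± 0.08. A middle set of log2 changes from 1.92 to 2.50 held Eprs (glutamate and proline in the same protein), Rars (arginine), Sars (serine), Nars (asparagine), Mars (methionine), Wars (tryptophan, known in human cells as an interferon-inducible gene) and Lars (leucine). The smallest called rises were Farsa and Farsb, the subunits of the phenylalanine enzyme, at 1.06 and 0.86, Kars (lysine) at 1.02, Hars (histidine) at 0.81 and Qars (glutamine) at 0.32. Farsb shares 9.47% of its exon bases with Sgpp2 on the opposite strand. Mars shares 68 exon bases, 1.99% of its own, with Ddit3 on the opposite strand, a gene that itself rose, and how many of its reads were counted in Mars was not tested.

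The 8 cytosolic members of the multisynthetase complex (Dars, Eprs, Iars, Kars, Lars, Mars, Qars, Rars) had a median log2 change of 2.05, and the 11 outside it 2.49. Both the lowest values, Dars and Qars, lay in the complex, and so did Iars. By the catalytic classes into which synthetases are divided by fold, the median was 2.34 for the 8 class I genes and 1.73 for the 10 class II genes, with Eprs, which holds both, left out. These groupings were made after the values were seen and carry no test.

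In LPS, mitochondrial synthetase genes were called in both directions, as all tested genes were. 4 of 15 were called higher (Wars2, Yars2, Ears2 and Sars2), 8 lower (Pars2, Cars2, Tars2, Fars2, Lars2, Hars2, Rars2 and Iars2) and 3 were not called (Aars2, Mars2 and Nars2). Their median log2 change was -0.40. The share called higher, 26.7%, lies below the 38.4% of all tested genes, and the share called lower, 53.3%, above the 41.4%. With 15 genes these counts are not read as a result about the class. Wars2 was called at least 2-fold higher and Pars2 at least 2-fold lower, and falls of that size were called for 26.3% of all genes. The groups did not overlap in the 4 genes called higher and in 9 below Con (the 8 called and Mars2), where 43.1% of all genes lay below Con in this way. With library totals alone 3 were higher and 9 lower, as Sars2 was not called and Mars2 was called lower.

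Wars2, the mitochondrial tryptophan enzyme, had 23.4, 25.4 and 22.8 CPM in LPS and 9.88, 10.7 and 10.5 CPM in Con. Yars2, for tyrosine, had 16.0, 18.3 and 17.1 CPM in LPS and 8.67, 7.84 and 10.8 CPM in Con. Ears2, which charges glutamate and whose product is also the first step toward mitochondrial glutaminyl-tRNA, had 7.16, 8.81 and 8.73 CPM in LPS and 4.67, 5.27 and 6.15 CPM in Con. In all 3 the LPS libraries lay above the Con libraries with no overlap. Log2 changes were 1.20 ± 0.09 for Wars2, 0.91 ± 0.11 for Yars2 and 0.62 ± 0.14 for Ears2, with edgeR adjusted p-values of 5.14e-11, 2.04e-07 and 0.000525. Sars2 was the smallest rise, at 0.38 ± 0.12 (adjusted p 0.00643).

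Pars2, the mitochondrial proline enzyme, had 3.46, 2.03 and 2.30 CPM in LPS and 5.89, 5.46 and 4.83 CPM in Con. Cars2, for cysteine, had 5.70, 5.67 and 7.67 CPM in LPS and 11.0, 12.5 and 12.9 CPM in Con. Tars2, for threonine, had 13.6, 12.7 and 14.0 CPM in LPS and 25.6, 24.6 and 24.1 CPM in Con. Here the LPS libraries lay below the Con libraries, again with no overlap. Log2 changes were -1.05 ± 0.21, -0.94 ± 0.16 and -0.89 ± 0.09, with adjusted p-values of 9.94e-05, 1.97e-05 and 1.40e-08 in the same order. The other 5 that fell had log2 changes from -0.69 (Fars2) to -0.40 (Iars2). Iars2 shares 22.9% of its exon bases with Rab3gap2, Fars2 8.72% with Nrn1 and Cars2 5.83% with Naxd, each on the opposite strand, and the sources used here do not name the strand setting of the counting.

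**Figure D3:**
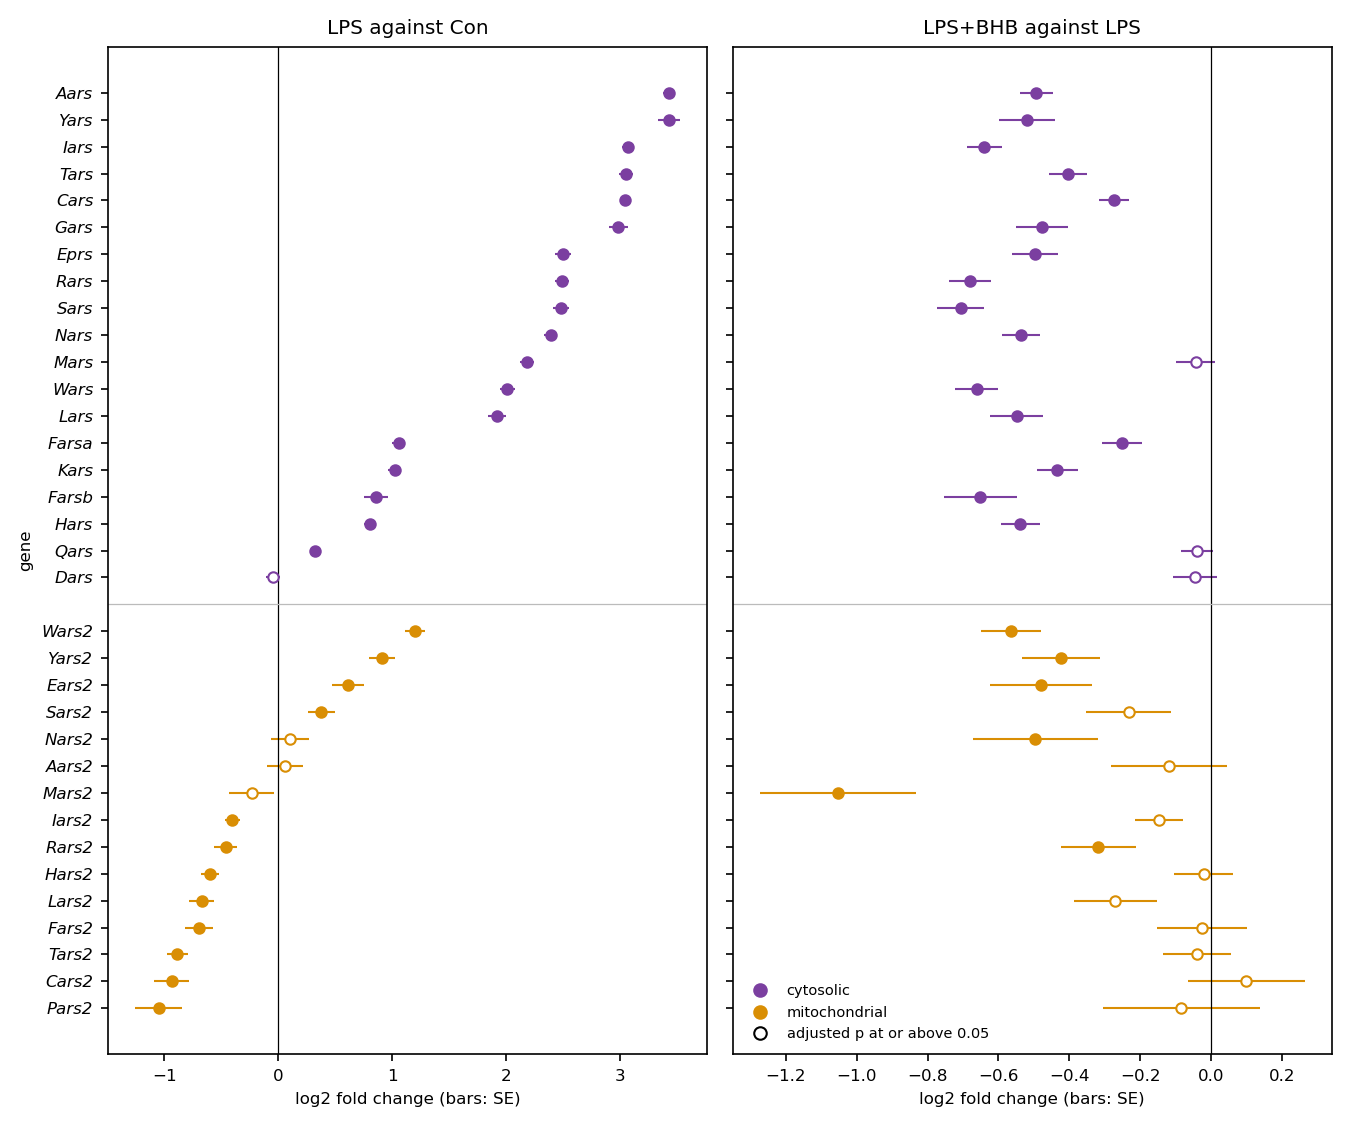
Log2 fold change with SE for each synthetase gene in LPS against Con (left) and LPS+BHB against LPS (right), cytosolic genes above the line and mitochondrial genes below; open points have an adjusted p at or above 0.05. On the left the cytosolic genes run from -0.05 to 3.43 and the mitochondrial genes from -1.05 to 1.20; on the right 16 cytosolic and 6 mitochondrial genes are called, all lower.

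Each mitochondrial enzyme was then set against the cytosolic enzyme for the same amino acid in the same library, as the log2 ratio of their CPM with 0.5 CPM added, which does not depend on how that library was scaled beyond the added 0.5. The 16 pairs take Eprs with both Ears2 and Pars2, and Fars2 with both Farsa and Farsb. In LPS against Con the ratio was higher in all 16 pairs, with no overlap between groups in any, and the median difference was 2.39. How often ratios of other gene pairs separate in this way was not computed. Of all tested genes taken singly, 39.6% lay above Con and 43.1% below it without overlap. With 3 libraries against 3 the exact two-sided permutation test cannot go below 0.1, and over the 48 pair tests the smallest Benjamini-Hochberg value was 0.12, so no pair could pass 0.05.

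The Cars/Cars2 ratio was 5.31, 5.35 and 4.94 in LPS and 1.39, 1.22 and 1.24 in Con. The Tars/Tars2 ratio was 4.48, 4.52 and 4.37 in LPS and 0.46, 0.58 and 0.63 in Con. The Iars/Iars2 ratio was 3.50, 3.66 and 3.46 in LPS and 0.08, 0.05 and 0.11 in Con. These were the largest differences, 3.92, 3.90 and 3.46 on the log2 scale (exact permutation p 0.1 each), and in each the mitochondrial gene fell while its cytosolic counterpart rose. The smallest were Wars/Wars2 at 0.84, Hars/Hars2 at 1.39 and Farsb/Fars2 at 1.50. The Wars/Wars2 ratio was 2.91, 2.89 and 3.03 in LPS and 2.15, 2.07 and 2.09 in Con, and both genes rose. The Hars/Hars2 ratio was 2.22, 1.92 and 1.95 in LPS and 0.54, 0.71 and 0.68 in Con, and the Farsb/Fars2 ratio 2.07, 2.12 and 1.89 in LPS and 0.66, 0.56 and 0.36 in Con. Yars/Yars2 was the only pair with a negative ratio in Con, -0.87, -0.93 and -1.10, against 1.58, 1.34 and 1.41 in LPS.

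**Figure D4:**
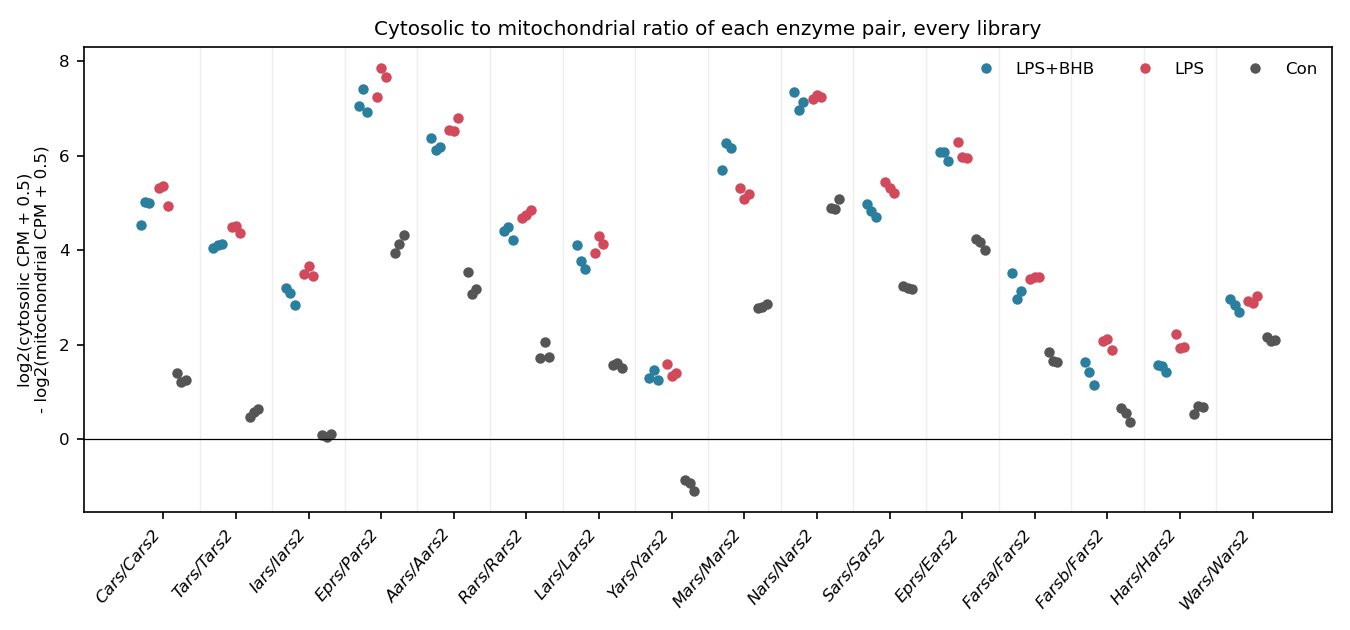
Log2 ratio of cytosolic to mitochondrial CPM (0.5 added to each) for 16 enzyme pairs in every library of LPS+BHB, LPS and Con. In every pair all LPS+BHB and all LPS points lie above the Con points; Mars/Mars2 is the pair whose LPS+BHB points lie above its LPS points without overlap.

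Hars and Hars2 lie head to head, their starts 197 bases apart, and share 195 exon bases, which are 7.97% of Hars and 4.56% of Hars2. Yet Hars was at 80.3, 79.0 and 77.6 CPM in LPS and 43.3, 47.9 and 44.3 CPM in Con, while Hars2 was at 16.9, 20.5 and 19.7 CPM in LPS and 29.6, 29.1 and 27.4 CPM in Con. Hars thus rose (0.81 ± 0.05) and Hars2 fell (-0.60 ± 0.08), with adjusted p-values of 1.42e-11 and 8.61e-07. Other divergent neighbours close to a member's start were Orc3 at 13 bases from Rars2, S100pbp at 33 from Yars, Terf2ip at 75 from Kars, Ubfd1 at 88 from Ears2, Lyrm4 at 114 from Fars2, Mrps12 at 172 from Sars2 and Wdr25 at 543 from Wars.

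The comparison of LPS+BHB with LPS asks what BHB changed in stimulated cells. Cytosolic synthetase genes were lower: 16 of 19 were called lower and 0 higher, against 24.4% of all tested genes called lower and 26.4% higher. Their median log2 change was -0.50, and that of all tested genes was 0.01. No cytosolic gene fell by 2-fold or more, as 3.36% of all genes did. All LPS+BHB libraries lay below all LPS libraries in 16 cytosolic genes, against 28.0% of all genes, and above them in 0, against 28.7%. LPS+BHB replicate 3 was the lowest of its group in 17 of the 19 genes, LPS replicate 3 in 12 and Con replicate 3 in 4. Without LPS+BHB replicate 3, 16 were again called lower, and the median was -0.44.

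Sars, the serine enzyme, had 269, 254 and 212 CPM in LPS+BHB, against 394, 411 and 395 CPM in LPS. Rars, for arginine, had 185, 196 and 163 CPM in LPS+BHB and 285, 293 and 294 CPM in LPS. Wars, for tryptophan, had 124, 127 and 103 CPM in LPS+BHB and 179.8, 191 and 189 CPM in LPS. In each the LPS+BHB libraries all lay below the LPS libraries, with replicate 3 lowest. Sars was at 0.613 times its LPS level (-0.71 ± 0.07, edgeR adjusted p 3e-07). Rars was at 0.623 times (-0.68 ± 0.06, adjusted p 1.41e-08) and Wars at 0.632 times (-0.66 ± 0.06, adjusted p 2.37e-08). The other 13 falls ran from -0.65 (Farsb) to -0.25 (Farsa), the other subunit of the same enzyme. Between these subunits Farsb had 20.8, 24.2 and 16.6 CPM in LPS+BHB and 32.8, 33.7 and 30.1 in LPS, and Farsa 77.3, 71.3 and 66.6 in LPS+BHB and 82.7, 84.6 and 88.6 in LPS; whether their falls differ was not tested.

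The 3 cytosolic genes not called all belong to the multisynthetase complex. Mars had 145, 155 and 132 CPM in LPS+BHB and 153, 153 and 139 CPM in LPS, at -0.04 ± 0.06 (adjusted p 0.551), although it had been 4.54-fold higher in LPS than in Con. Qars was at -0.04 ± 0.05 (adjusted p 0.495) and Dars at -0.04 ± 0.06 (adjusted p 0.576), the genes with the smallest LPS response. The complex's 8 genes had a median of -0.46 and the 11 outside it -0.52.

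Of the mitochondrial genes 6 of 15 (40.0%) were called lower in LPS+BHB than in LPS and 0 higher, against 24.4% of all tested genes lower and 26.4% higher, with a median log2 change of -0.23. The 6 were Mars2, Wars2, Nars2, Ears2, Yars2 and Rars2. The LPS+BHB libraries lay below the LPS libraries without overlap in these 6 and in Sars2, against 28.0% of all genes. Mars2, the mitochondrial methionine enzyme, had 2.31, 1.53 and 1.34 CPM in LPS+BHB and 3.36, 4.06 and 3.36 CPM in LPS. Wars2 had 15.5, 17.4 and 15.6 CPM in LPS+BHB and 23.4, 25.4 and 22.8 CPM in LPS. Nars2, for asparagine, had 3.05, 4.03 and 2.96 CPM in LPS+BHB and 4.88, 4.62 and 4.67 CPM in LPS. In all 3 genes no LPS+BHB library reached the lowest LPS library. Log2 changes were -1.05 ± 0.22 for Mars2, -0.56 ± 0.09 for Wars2 and -0.50 ± 0.18 for Nars2, with edgeR adjusted p-values of 0.00041, 1.09e-05 and 0.0234. Mars2 was the only member of either class called with a change of 2-fold or more here. Without LPS replicate 1 the count was 4, with Nars2 (adjusted p 0.062) and Rars2 (0.06) no longer called, and without LPS replicate 2 it was 8. Nars2 was also lost without LPS+BHB replicate 1 (0.0787) or replicate 3 (0.0833).

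Ears2 was at 5.97, 6.11 and 5.61 CPM in LPS+BHB and 7.16, 8.81 and 8.73 CPM in LPS, and Yars2 at 13.4, 12.8 and 12.1 CPM in LPS+BHB and 16.0, 18.3 and 17.1 CPM in LPS. With Wars2 these are 3 of the 4 mitochondrial genes that had risen with LPS. The fourth, Sars2, was at -0.23 ± 0.12 (adjusted p 0.114). Of the 8 that had fallen with LPS, Rars2 fell again (-0.32 ± 0.11), and the other 7 were not called, at -0.27 (Lars2) to 0.10 (Cars2). Both comparisons use the LPS libraries, so a gene's direction in LPS+BHB against LPS is not independent of its direction in LPS against Con.

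In the enzyme pairs the cytosolic to mitochondrial ratio was lower in LPS+BHB than in LPS in 15 of 16, with a median difference of -0.36. Groups did not overlap in 7 of these, and in 8 they did. No share for other gene pairs was computed, and 28.0% of single genes lay lower without overlap. Mars/Mars2 went the other way, with ratios of 5.69, 6.26 and 6.17 in LPS+BHB and 5.31, 5.07 and 5.18 in LPS, a difference of 0.85 with no overlap (exact permutation p 0.1). The other large differences were Farsb/Fars2 at -0.62, with ratios of 1.64, 1.42 and 1.15 in LPS+BHB and 2.07, 2.12 and 1.89 in LPS, and Hars/Hars2 at -0.52, with 1.58, 1.54 and 1.42 in LPS+BHB and 2.22, 1.92 and 1.95 in LPS. Neither pair overlapped. The smallest were Eprs/Ears2 at -0.06, Nars/Nars2 at -0.09 and Yars/Yars2 at -0.11, and all 3 overlapped. Eprs/Ears2 ratios were 6.07, 6.07 and 5.88 in LPS+BHB and 6.28, 5.97 and 5.94 in LPS. Nars/Nars2 ratios were 7.34, 6.97 and 7.13 in LPS+BHB and 7.19, 7.28 and 7.24 in LPS, and Yars/Yars2 ratios were 1.29, 1.47 and 1.25 in LPS+BHB and 1.58, 1.34 and 1.41 in LPS. No pair could pass 0.05, as above.

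Set against unstimulated cells, LPS+BHB cells still had more cytosolic synthetase RNA. 17 of 19 cytosolic genes were called higher and 0 lower, against 38.0% of all tested genes called higher and 40.4% lower, with a median log2 change of 1.81 beside -0.06 for all genes. Rises of 2-fold or more were called for 13, against 18.2% of all genes. The groups did not overlap in the 17, against 38.5% of all genes. Library totals alone, which move the median of all genes by -0.33, give 15 higher and 1 lower, turn the sign of Farsb, Hars and Qars, and leave 34.7% of all called genes higher, against 48.5%. Aars (543, 537 and 487 CPM in LPS+BHB) and Yars (33.5, 36.4 and 29.4 CPM) led again, at 2.94 ± 0.05 and 2.91 ± 0.10 above the Con values given earlier. Cars followed with 213, 203 and 202 CPM in LPS+BHB, at 2.77 ± 0.05, and had a small fall with BHB (-0.27). Their edgeR adjusted p-values were 3.91e-21, 9.41e-17 and 1.80e-21. Farsb (0.21 ± 0.11, adjusted p 0.0793) and Dars (-0.09 ± 0.06, adjusted p 0.178) were not called. Farsb was called without LPS+BHB replicate 3 (0.00103).

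Of the mitochondrial genes 2 of 15 were called higher in LPS+BHB than in Con, Wars2 at 0.64 ± 0.09 (adjusted p 1.49e-06) and Yars2 at 0.49 ± 0.11 (adjusted p 0.000551), and 10 lower, with a median of -0.61. Of all tested genes 38.0% were called higher and 40.4% lower. With library totals alone 1 was higher and 11 lower, as Yars2 was not called and Aars2 was called lower. Mars2 had 2.31, 1.53 and 1.34 CPM in LPS+BHB and 4.17, 4.39 and 4.11 CPM in Con. Pars2 had 2.78, 2.12 and 2.47 CPM in LPS+BHB and 5.89, 5.46 and 4.83 CPM in Con, and Lars2, for leucine, 8.72, 11.6 and 9.99 CPM in LPS+BHB and 19.6, 18.4 and 20.2 CPM in Con. These were the 3 largest falls, of which Mars2 and Pars2 passed 2-fold, as falls in 23.4% of all genes did. All LPS+BHB libraries lay below all Con libraries in these 3 and in 6 further mitochondrial genes, against 41.7% of all genes, and above them in Wars2 and Yars2, against 38.5%. For Mars2, Pars2 and Lars2 the log2 changes were -1.29 ± 0.22, -1.13 ± 0.21 and -0.94 ± 0.11, with adjusted p-values of 1.61e-05, 4.83e-05 and 1.77e-07. Nars2 was at the threshold (-0.39 ± 0.17, adjusted p 0.0473) and was lost in most other fits, among them each fit without Con replicate 1 (0.105), Con replicate 2 (0.139), LPS+BHB replicate 1 (0.146) or LPS+BHB replicate 3 (0.157). All 16 pair ratios were higher in LPS+BHB than in Con without overlap, with a median difference of 2.28. Here too no share for other gene pairs was computed. The largest were Cars/Cars2 (3.56), Tars/Tars2 (3.53) and Mars/Mars2 (3.23), and the smallest Wars/Wars2 (0.72), Hars/Hars2 (0.87) and Farsb/Fars2 (0.88), each with an exact permutation p of 0.1.

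Cytosolic members with the TGATGNAA core in the 300-base window had the larger LPS response. The 5 genes printed above had log2 changes in LPS against Con of 2.99 to 3.43, with a median of 3.07, and the 8 cytosolic genes whose window lacks it ran from -0.05 to 2.50, with a median of 1.04. The groups did not overlap. With the 250 bases before the start alone they did: Iars and Yars then lack the core, so that the genes without it ran from -0.05 to 3.43 and the 3 with it, Aars, Gars and Tars, from 2.99 to 3.43. Cars, at 3.05, had no window to search, nor did Rars, Nars, Wars, Lars and Hars. In LPS+BHB against LPS the medians were -0.49 with the core and -0.34 without it, and the ranges overlapped. This grouping was made with the values known and carries no test.

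**Figure D5:**
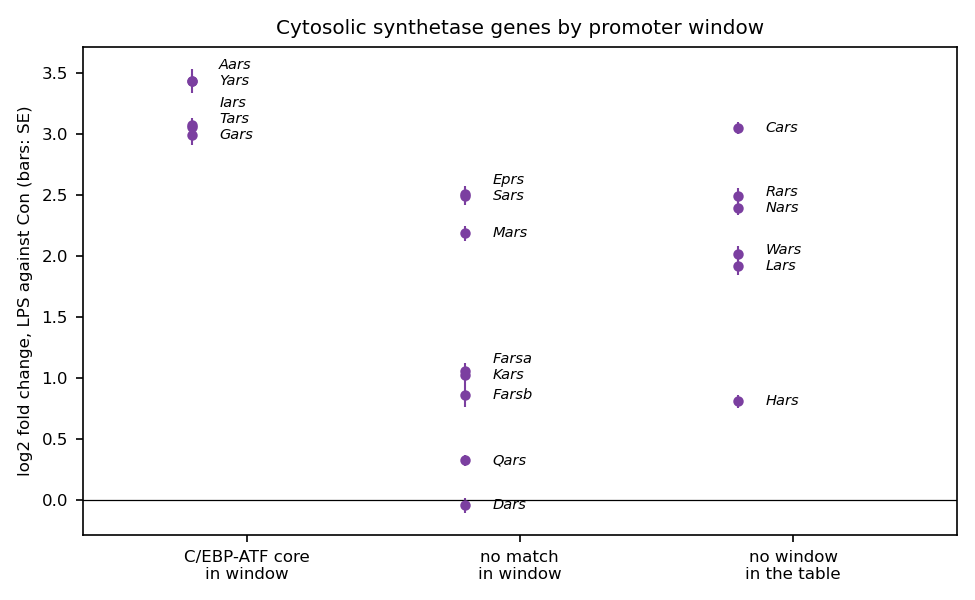
Log2 fold change with SE in LPS against Con of each cytosolic synthetase gene, by whether its RefSeq promoter window holds the C/EBP-ATF core TGATGNAA, lacks it, or is not in the table. The 5 genes with the core lie between 2.99 and 3.43 and the 8 without it between -0.05 and 2.50.

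Genes of the ATF4 amino acid response, Atf4 itself among them, were mostly higher in LPS and then lower in LPS+BHB. Of 22 listed, 21 were called higher and 1 lower in LPS than in Con (median 3.59), and 1 higher and 15 lower in LPS+BHB than in LPS (median -0.39). In LPS+BHB against Con 21 were higher and 1 lower (median 3.26). Over all tested genes 38.4% were higher and 41.4% lower in LPS against Con, 26.4% and 24.4% in LPS+BHB against LPS, and 38.0% and 40.4% in LPS+BHB against Con. The 1 gene called higher in LPS+BHB against LPS was Cebpb (1.51 ± 0.15, edgeR adjusted p 9.06e-05). That count was 2 without Con replicate 1, without LPS+BHB replicate 3, and with only the libraries compared. Ppp1r15a, which recruits the phosphatase that reactivates eIF2, averaged 628 ± 16.4 CPM in LPS+BHB, 796 ± 12.8 in LPS and 20.7 ± 1.99 in Con (SD, n = 3 each, as below). Ddit3, which encodes the transcription factor CHOP, averaged 241 ± 11.3 in LPS+BHB, 353 ± 21.4 in LPS and 23.6 ± 1.20 in Con. Psph, the last enzyme of serine synthesis, averaged 18.2 ± 1.74 in LPS+BHB, 46.2 ± 1.10 in LPS and 8.75 ± 0.689 in Con, and fell by more than 2-fold with BHB (-1.34 ± 0.08, adjusted p 1.64e-11). The core was in 7 of the 20 of these genes with a promoter window: Trib3, Chac1, Asns, Pycr1, Atf3, Nupr1 and Vldlr. Atf3 was the gene called lower in LPS than in Con (-1.21 ± 0.06, edgeR adjusted p 2.83e-12). In the lists below the core was in Slc7a11, Slc1a4, Eif2s3x and Eef2k. In LPS against Con Slc7a11 (4.58), Slc1a4 (6.86) and Eif2s3x (0.79) rose and Eef2k fell (-1.38). In LPS+BHB against LPS Slc7a11 (0.56) and Eef2k (0.52) rose, and Slc1a4 (-1.39) and Eif2s3x (-0.45) fell.

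The kinases of eIF2 did not share a direction. In LPS against Con 1 of 4 was higher and 3 lower: Eif2ak3 (PERK) averaged 76.8 ± 5.14 CPM in LPS+BHB, 90.1 ± 1.42 in LPS and 47.2 ± 2.16 in Con, and Eif2ak2 (PKR) 21.0 ± 1.19, 17.5 ± 1.50 and 65.0 ± 6.13 in the same groups. In LPS+BHB against LPS 2 were higher and 2 lower, and the lower ones were Eif2ak1 (HRI, -0.24 ± 0.06, adjusted p 0.0019) and Eif2ak3 (-0.23 ± 0.05, adjusted p 0.00142). The 2 calls higher were 0 without LPS replicate 2 and 1 without LPS+BHB replicate 3. In LPS+BHB against Con 1 was higher and 3 lower. With 4 genes these counts are not read against the shares of all genes.

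Of 12 tested amino acid transporter genes (13 listed) 10 were higher and 2 lower in LPS than in Con (median 4.05), 4 higher and 7 lower in LPS+BHB than in LPS (median -0.44), and 9 higher and 3 lower in LPS+BHB than in Con (median 3.87). The shares of all tested genes were 38.4% higher and 41.4% lower in LPS against Con, 26.4% and 24.4% in LPS+BHB against LPS, and 38.0% and 40.4% in LPS+BHB against Con. Slc38a1, which imports glutamine and other neutral amino acids, averaged 426 ± 23.3 CPM in LPS+BHB, 566 ± 19.2 in LPS and 113 ± 5.74 in Con. Slc43a2, a carrier of large neutral amino acids, averaged 192 ± 12.5 in LPS+BHB, 91.1 ± 1.51 in LPS and 1040.0 ± 32.4 in Con, the opposite pattern. Slc36a1, a proton-coupled carrier of small amino acids, averaged 41.7 ± 2.54 in LPS+BHB, 21.7 ± 1.20 in LPS and 127 ± 0.323 in Con.

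Among 11 partners of tRNA charging (scaffolds, editing and tRNA-end enzymes, and the mitochondrial amidotransferase) 6 were higher and 3 lower in LPS than in Con (median 0.46), 0 higher and 5 lower in LPS+BHB than in LPS (median -0.20), and 5 higher and 3 lower in LPS+BHB than in Con (median -0.23), where 38.0% of all tested genes were higher and 40.4% lower (38.4% and 41.4% in LPS against Con, 26.4% and 24.4% in LPS+BHB against LPS). With library totals alone 5 were higher and 5 lower in LPS against Con, and 3 higher and 6 lower in LPS+BHB against Con, which turns the balance. The 5 called lower in LPS+BHB against LPS were 3 without Con replicate 2, LPS replicate 1, LPS replicate 2 or LPS+BHB replicate 3. Eef1e1, a scaffold of the multisynthetase complex, averaged 24.1 ± 3.87 CPM in LPS+BHB, 43.8 ± 1.97 in LPS and 10.5 ± 1.72 in Con. Trnt1, which adds the CCA end to transfer RNAs, averaged 44.8 ± 0.273 in LPS+BHB, 56.1 ± 2.06 in LPS and 27.3 ± 1.78 in Con. Gatc, a subunit of the amidotransferase that completes mitochondrial glutaminyl-tRNA, averaged 4.31 ± 0.799 in LPS+BHB, 5.01 ± 0.693 in LPS and 16.2 ± 0.772 in Con, a fall in LPS against Con (-1.69 ± 0.14, adjusted p 3.01e-10).

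The table also holds synthetase genes outside the 34. Tarsl2, a second cytosolic threonine enzyme, averaged 1.10 ± 0.0477 CPM in LPS+BHB, 2.11 ± 0.210 in LPS and 9.60 ± 0.338 in Con, so that it fell with LPS (-2.19 ± 0.16, adjusted p 6.67e-11) while Tars rose. Vars2, the mitochondrial valine enzyme, averaged 0.811 ± 0.276 in LPS+BHB, 0.432 ± 0.210 in LPS and 5.28 ± 0.817 in Con. Vars, the cytosolic valine enzyme, was listed with 31, 28 and 42 counts in LPS+BHB, 22, 2 and 24 in LPS, and 2, 4 and 0 in Con, too few for a fold to be read. Vars was called higher in LPS than in Con, but not when the LPS+BHB libraries were left out. Vars2 was not called in LPS+BHB against LPS with all libraries, and without LPS replicate 1, LPS+BHB replicate 1 or LPS+BHB replicate 2 it was called higher (1.26, 1.03 and 1.02 on the log2 scale).

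Cytosolic initiation and elongation factors were mostly higher in LPS, with a smaller median than the synthetases. In LPS against Con 17 of 19 were higher and 1 lower, with a median of 0.79; in LPS+BHB against LPS 2 were higher and 11 lower (median -0.16), and in LPS+BHB against Con 14 higher and 1 lower (median 0.35). These stand beside 38.4% of all tested genes higher and 41.4% lower in LPS against Con, 26.4% and 24.4% in LPS+BHB against LPS, and 38.0% and 40.4% in LPS+BHB against Con. With library totals alone 13 were higher and 2 lower in LPS against Con, 1 higher and 13 lower in LPS+BHB against LPS, and 9 higher and 7 lower in LPS+BHB against Con. Eif5, the GTPase activator of eIF2, averaged 633 ± 41.7 CPM in LPS+BHB, 822 ± 26.7 in LPS and 179 ± 4.62 in Con. Eif4e, which binds the messenger cap, averaged 128 ± 6.01 in LPS+BHB, 143 ± 1.87 in LPS and 38.7 ± 1.70 in Con. Etf1, the termination factor, averaged 420.0 ± 25.2 in LPS+BHB, 377 ± 6.48 in LPS and 104 ± 4.85 in Con. Eif2b1, a subunit of the exchange factor of eIF2, and Eif4a1, an RNA helicase, had the smallest p-values in LPS+BHB against LPS, at -0.68 ± 0.08 (adjusted p 1.97e-07) and -0.61 ± 0.05 (adjusted p 4.14e-09). The 2 higher calls were 1 without LPS+BHB replicate 1.

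Mitochondrial translation factors were called in both directions, at shares near those of all genes in LPS against Con. In LPS against Con 4 of 11 were higher and 5 lower (median -0.07), in LPS+BHB against LPS 1 higher and 2 lower (median -0.02), and in LPS+BHB against Con 3 higher and 6 lower (median -0.31). All tested genes had 38.4% higher and 41.4% lower in LPS against Con, 26.4% and 24.4% in LPS+BHB against LPS, and 38.0% and 40.4% in LPS+BHB against Con. Without control replicates 2 and 3 together, 3 were lower in LPS against Con and 1 in LPS+BHB against Con. Gfm1, an elongation factor, averaged 34.1 ± 1.63 CPM in LPS+BHB, 45.1 ± 1.64 in LPS and 27.6 ± 1.36 in Con, whereas Guf1, a ribosome-associated GTPase, averaged 10.2 ± 0.793, 9.90 ± 0.760 and 20.3 ± 0.213 in the same groups. Tsfm, the exchange factor of the mitochondrial elongation factor Tu, averaged 17.7 ± 0.647 in LPS+BHB, 15.8 ± 1.05 in LPS and 8.79 ± 1.08 in Con. Mrrf, the ribosome recycling factor, fell in LPS+BHB against LPS (-0.74 ± 0.12, adjusted p 1.98e-05). Without LPS+BHB replicate 3, 2 factors were called higher in that comparison.

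Of 11 genes of mitochondrial tRNA modification and processing 5 were higher and 3 lower in LPS than in Con (median 0.13), 2 higher and 3 lower in LPS+BHB than in LPS (median -0.03), and 5 higher and 2 lower in LPS+BHB than in Con (median 0.02). The comparable shares of all tested genes were 38.4% higher and 41.4% lower, 26.4% and 24.4%, and 38.0% and 40.4%, for the same comparisons, so the counts are not read as a result about the list. With library totals alone 5 were lower in LPS against Con and 5 in LPS+BHB against Con, and with no filter on low counts 1 was lower in LPS against Con. Trmt61b, a methyltransferase, averaged 11.0 ± 2.64 CPM in LPS+BHB, 12.2 ± 0.471 in LPS and 2.71 ± 0.159 in Con. Trmt5, another methyltransferase, averaged 19.9 ± 2.12 in LPS+BHB, 12.0 ± 0.940 in LPS and 7.58 ± 0.443 in Con, and rose in LPS+BHB against LPS (0.72 ± 0.10, adjusted p 4.59e-06). Pus1, a pseudouridine synthase, was higher in LPS than in Con (0.92 ± 0.08, adjusted p 1.29e-09), and Elac2, which trims transfer RNA ends, was lower in LPS+BHB than in LPS (-0.57 ± 0.08, adjusted p 6.27e-06). The 3 lower calls in LPS against Con were 0 without LPS replicate 2, and the 2 higher calls in LPS+BHB against LPS were 1 without LPS replicate 3. The 2 lower calls in LPS+BHB against Con were 1 without any of Con replicates 1, 2 and 3 or LPS+BHB replicates 1 and 2.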

How the data were processed

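Total RNA of 9 BMDM libraries was extracted with Trizol and sequenced on Illumina libraries, per the labels' protocols. Reads were aligned with HISAT2 to mm10, per the submitters' processing notes; no source used here names the aligner's version, the counting tool, the annotation or the strand setting. The authors deposited raw counts per gene symbol for 46095 symbols, with no replicates pooled. Each of the 9 columns was matched to a library by its title. Library totals of 29633411 to 32798920 counts make counting error small for all but genes with few counts.

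Genes were filtered with filterByExpr (minimum count 10), scaled with TMM and modelled by group alone in all 9 libraries with edgeR 4.0.16 (R 4.3.3), using robust quasi-likelihood tests. The fit left 6 residual degrees of freedom, and the biological coefficient of variation was 6.72%. Two-sided p-values were adjusted over 14026 genes by Benjamini-Hochberg and called at 0.05. CPM use the TMM-scaled library total. The SE of a log2 fold change is derived from the quasi-likelihood F statistic and is approximate. The fitting procedure was also run on simulated independent counts, with the spread estimated from these libraries. Such counts cannot speak to effects shared between libraries or to technical replicates, and no result here rests on them. Coordinates are those of GRCm38, the build that mm10 names.

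The members and lists were chosen with earlier results of these data known, and the motif, complex and class groupings describe only. Genes given in full are the 3 largest called rises and falls per class and comparison, and the pairs with the 3 largest and 3 smallest differences; of each list the 2 genes with the smallest p per comparison are named. Prorp was matched to the row 1110008L16Rik. Other genes named were chosen after their values were seen. Alternatives were DESeq2's size factors, library totals alone, no filter, DESeq2 1.42.0, a replicate block, the 6 libraries compared only, each library left out, and control replicates 2 and 3 left out.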

Additional observations from a re-analysis of the deposited data

How the results depend on the processing

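The counts of cytosolic genes called higher or lower were within 1.5 times of the values reported under every refit, apart from library totals alone, where 1 cytosolic gene was lower in LPS against Con and 1 in LPS+BHB against Con, and 1 mitochondrial gene was higher in LPS+BHB against Con. Deviations of same-numbered libraries from their group means had correlations of -0.02 to 0.04. Between LPS and LPS+BHB the same-numbered values (0.0327, 0.0138 and 0.0392) lay above the others (at most 0.00767). Such small correlations cannot settle whether the numbers pair the libraries, and the labels do not say. A fit with the replicate number as a block gave 18, 0 and 18 cytosolic genes higher and 0, 16 and 0 lower. The order is LPS against Con, LPS+BHB against LPS and LPS+BHB against Con. In the same order 4, 0 and 2 mitochondrial genes were higher and 8, 6 and 9 lower. The block added Farsb (adjusted p 0.0412) and lost Nars2 (0.0513) in LPS+BHB against Con. The difference of the Eprs/Ears2 pair in LPS+BHB against LPS ranged from -0.12 to 0.052 as libraries were left out, with 0.0044 without LPS+BHB replicate 3. With library totals alone, signs turned for Farsb (-0.12), Hars (-0.058), Qars (-0.041), Ears2 (-0.19) and Sars2 (-0.18) in LPS+BHB against Con, and for Aars2 (-0.21) and Nars2 (-0.17) in LPS against Con. Without control replicates 2 and 3 together, Dars was at 0.013 in LPS against Con and Aars2 at 0.36 in LPS+BHB against Con. As libraries were left out in turn, changes near 0 crossed it for Aars2 in LPS against Con (-0.11 to 0.20) and in LPS+BHB against Con (-0.23 to 0.085). In LPS+BHB against LPS this held for Dars (-0.076 to 0.0059), Mars (-0.0998 to 0.015), Cars2 (-0.12 to 0.25), Fars2 (-0.16 to 0.076), Hars2 (-0.10 to 0.037), Pars2 (-0.23 to 0.18, and 0.013 without LPS+BHB replicate 2) and Tars2 (-0.12 to 0.046). The cause was not tested. With few counts behind mitochondrial genes such as Mars2 and Nars2, differences of their size in other genes of this level may not be detectable.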
